A study of Mus musculus with 6 samples.

Results

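The genes described here are 9 transcription factors that act in early T cell development: Tcf7, Lef1, Gata3, Bcl11b, Tcf3, Tcf12, Id3, Ets1 and Tox. They were taken by gene name from a deposited table of 54532 genes measured by RNA-seq in mouse bone marrow (BM), and each name matched 1 gene. A gene was tested where 3 or more of the 6 libraries had an FPKM of 1 or above. All 9 were tested, among 13393 genes in total. FPKM is the number of fragments divided by gene length and by library size. Levels can be compared between genes as far as a library takes reads alike from short and long genes.

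A thymus-settling progenitor enters the T lineage when Notch signals switch on Tcf7 and Gata3, and Bcl11b then closes off the alternative natural killer (NK) and myeloid fates. Lef1 is the close relative of Tcf7. The E proteins encoded by Tcf3 (E2A) and Tcf12 (HEB) bind E box DNA as dimers and drive Rag and pre-T-cell receptor genes, and Id3 blocks them by forming dimers that cannot bind DNA. Ets1 supports T cell receptor gene expression and thymocyte survival, and Tox is needed for CD4 lineage development. Several of these genes are altered in T-cell acute lymphoblastic leukemia (T-ALL), a cancer of immature T cells.

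The 6 libraries came from BM of C57BL/6 mice at day 100 after transplantation. Both groups had received lineage-negative progenitors infected with a retrovirus that encodes GFP and JAK3 M511I, a cytokine receptor kinase with an activating mutation. The 3 KO libraries are labelled Phf6 KO, Phf7 KO and Phf8 KO and the 3 WT libraries Phf6 WT, Phf7 WT and Phf8 WT. The design text names only Phf6, a chromatin-associated tumor suppressor gene of T-ALL. According to the study's methods, donors and recipients were male, and the deletion (Vav1-Cre;Phf6 fl/y) used a Cre driven by the Vav1 promoter, which is active in hematopoietic cells. The labels say that BM cells were frozen and do not say whether GFP-positive cells were sorted first. They do not state that replicates were separate animals, so p-values measure only the spread between these libraries, which may be technical.

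Between 13015823 and 18235095 reads per library could be recovered from the table. Gene-level Phf6 did not separate the groups, at an FPKM of 6.39 ± 2.37 (SD, n = 3) in WT and 5.78 ± 0.849 (SD, n = 3) in KO (log2 fold change -0.073, limma, adjusted p = 0.893). The table gives no exon values, so the deleted exons could not be examined, and KO and WT below are the labels of the libraries. Library WT 2 stood apart from WT 1 and WT 3. Genes under 1000 bases long took 17.1% of the reads of WT 2 and 3.11% to 5.01% of those of the rest. Its log2 expression correlated with that of WT 1 and WT 3 at 0.779 and 0.746 across genes, against 0.948 between those 2. The main results are therefore given with and without WT 2.

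In the fit of all 6 libraries, 3 of the 9 genes rose in KO past an adjusted p of 0.05 and 0 fell. The 3 were Tcf12, Bcl11b and Tox. In bulk tissue, fewer cells of a type and less RNA per cell cannot be told apart, and this holds for each value below. Of all 13393 genes tested, 13.1% rose and 13.3% fell by the same criterion (limma on log2(FPKM + 1), Benjamini-Hochberg adjustment over all tested genes). All 9 log2 fold changes were above 0, with a median of 1.35, against 0.086 for all tested genes. Without WT 2 their median was 0.89, against 0.040 for all tested genes. The KO values lay above every WT value for Tcf7, Bcl11b, Tcf12 and Tox, and 26.2% of all tested genes were separated in this direction. Without WT 2 the number past the threshold was 6 of 9, with Tcf7, Tcf3 and Id3 added, and the share of all genes that rose was 26.8%. The number was 2 when WT 1 was left out, 1 for KO 1, 2 for KO 2 and 1 for KO 3, with 9.24%, 7.38%, 7.00% and 7.18% of all genes rising, and Tcf12 passed in each of these fits. The shares of all genes that fell were 25.3% without WT 2 and 8.08%, 7.44% and 7.91% without KO 1, KO 2 and KO 3. Counts in the related lists below stand beside these shares. Among the 716 tested genes that the table assigns to a transcription factor family, 13% rose and 14.8% fell with all libraries.

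**Figure D1:**
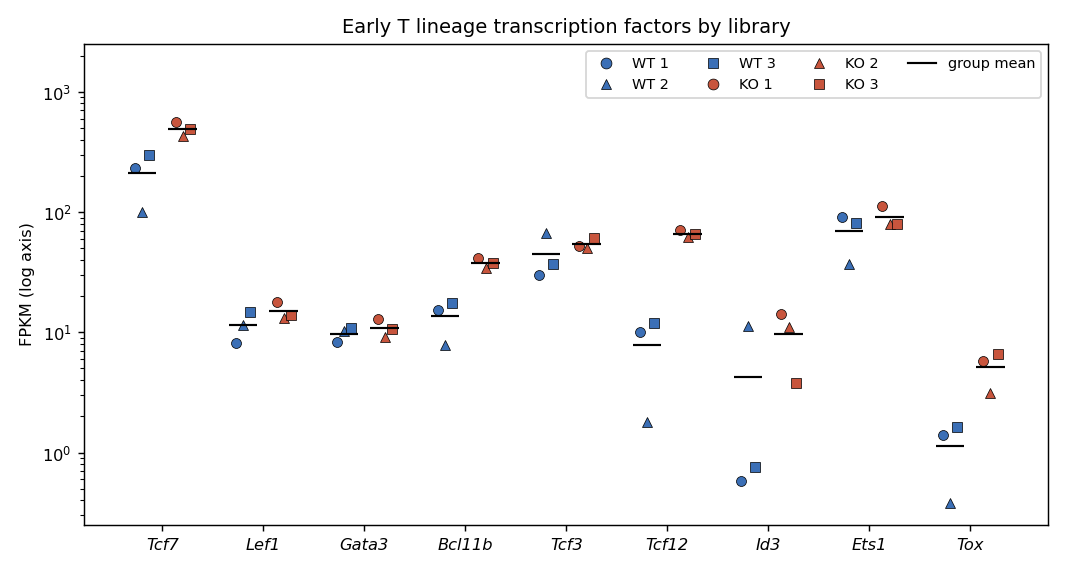
FPKM (log axis) of the 9 transcription factor genes in each library, with WT in blue, KO in red, a marker shape for each replicate number and a bar at each group mean. KO points lie above all WT points for Tcf7, Bcl11b, Tcf12 and Tox. The WT 2 triangle is the lowest point for Tcf7, Bcl11b, Tcf12, Ets1 and Tox and the highest WT point for Tcf3 and Id3.

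Tcf12 had the largest log2 fold change with all libraries, and Id3 a similar one without WT 2 on the log2(FPKM + 1) scale. In FPKM, the KO mean over the mean of WT 1 and WT 3 was 14.5 for Id3 and 6.04 for Tcf12. HEB, the product of Tcf12, is the E protein that acts with E2A in the thymus. The FPKM of Tcf12 was 9.98, 1.81 and 11.9 in WT 1, WT 2 and WT 3, and 70.8, 62.3 and 65.3 in KO 1, KO 2 and KO 3. Every KO library was thus above every WT library, and the KO values were close together. The means were 7.90 ± 5.36 in WT and 66.2 ± 4.32 in KO (SD, n = 3 each). The log2 fold change was 3.19 (SE 0.58, limma, adjusted p = 0.00922). Without WT 2 it was 2.49 (limma, adjusted p = 0.000103). Tcf12 passed the threshold in all 21 alternative fits, with log2 fold changes from 2.49 to 4.09 and adjusted p-values up to 0.0456.

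The gene lies on chr9:71842688-72111871 (GRCm38, minus strand), and the spans of 11 other annotated genes overlap it. Most of these had few reads. A430027C01Rik, an unconfirmed transcript on the same strand, had 37, 3 and 71 reads in WT and 706, 417 and 336 in KO, against 2393, 330 and 2867 and then 20491, 15236 and 16329 for Tcf12 itself. It also rose (log2 fold change 3.01, limma, adjusted p = 0.00556). How reads shared by both were assigned is not given in the sources used here.

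Tcf3 was more even. It encodes E2A, the more general of the E proteins, also needed in B cells. The WT values were 29.7, 66.6 and 36.9 and the KO values 52.5, 50.2 and 60.9. WT 2 was the highest of all 6 libraries and the groups overlapped only through it. The log2 fold change was 0.37 (SE 0.35, limma, adjusted p = 0.490) with all libraries and 0.70 without WT 2 (limma, adjusted p = 0.0125). WT 2 was also the library with the most B cell marker RNA: the summed FPKM of 10 B cell markers was 1110 in WT 2, 14.9 and 21.3 in WT 1 and WT 3, and 2.20 to 2.79 in KO. Their part in the Tcf3 and Id3 values of WT 2 was not tested.

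The balance of the E protein genes differed between the groups in every library. The ratio of Tcf12 to Tcf3 FPKM was 0.336, 0.0271 and 0.322 in WT and 1.35, 1.24 and 1.07 in KO. Tcf12 was therefore below Tcf3 in 3 of 3 WT libraries and above it in 3 of 3 KO libraries. Such a ratio of FPKM within a library does not depend on how libraries are scaled. It can depend on how a library takes reads from short and long genes, in which WT 2 stood apart. Tcf12 is 15529 bases long and Tcf3 4039. What length added to the WT 2 ratios was not tested. On the log2(FPKM + 1) scale, which is used for each ratio difference unless the FPKM ratio itself is named, Tcf12/Tcf3 differed by 2.82. Without WT 2 the difference was 1.80. That of the FPKM ratios themselves was 3.08 with all libraries and 1.88 without WT 2. The 2-sided exact permutation test with all libraries gave p = 0.1, the smallest that 3 libraries against 3 allow (adjusted p = 0.2 over 8 ratios).

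Id3, the inhibitor, varied most within groups. Its FPKM was 0.579, 11.4 and 0.756 in WT and 14.1, 11.0 and 3.81 in KO. WT 2 lay among the KO values, whereas WT 1 and WT 3 were below all of them. These values rest on few reads, 16, 239 and 21 in WT and 471, 311 and 110 in KO. With all libraries the log2 fold change was 1.56 (SE 0.88, limma, adjusted p = 0.250). Without WT 2 it was 2.52 (limma, adjusted p = 0.00756), so the call for Id3 was decided by this library. Relative to the E proteins, the ratio of Id3 to the sum of Tcf3 and Tcf12 was 0.0146, 0.166 and 0.0155 in WT and 0.114, 0.0981 and 0.0302 in KO, which overlap. The log2 difference of these FPKM ratios was 1.06 (exact permutation, p = 0.4), and 2.21 without WT 2. With 1 added to each FPKM, which shrinks low values such as those of Id3, it was 0.33 (exact permutation, p = 0.9), and 1.09 without WT 2.

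The related E and ID genes were Tcf4, Id1, Id2 and Id4, the last with no reads in any library. Of the 3 tested, 0 rose and 0 fell. Without WT 2, 2 of them rose, Id1 by 3.11 and Tcf4 by 0.99 on the log2 scale. Id2, the inhibitor used by NK and innate lymphoid cells, had an FPKM of 27.4, 20.0 and 29.0 in WT and 33.7, 34.2 and 28.0 in KO, which overlap. The ratio of Id2 to the sum of Tcf3 and Tcf12 was 0.692, 0.292 and 0.593 in WT and 0.273, 0.304 and 0.221 in KO, overlapping through WT 2 (log2 difference -0.90, exact permutation, p = 0.2, and -1.26 without WT 2). The ratio of Id3 to Id2 overlapped as well, with 0.0211, 0.568 and 0.0261 against 0.419, 0.322 and 0.136 (log2 difference 1.23, exact permutation, p = 0.4). Without WT 2 the difference was 2.35, and that of the FPKM ratios themselves was 1.96 with all libraries and 3.49 without WT 2. Of 6 tested bHLH and LIM partners of E proteins, 1 fell. This was Lmo2, a bridge between E proteins and GATA factors in stem and erythroid cells, with 11.9, 24.7 and 13.1 in WT and 0.297, 0.264 and 0 in KO (log2 fold change -3.83, limma, adjusted p = 0.000656).

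Tcf7 was the most abundant of the 9 genes in each library. It encodes TCF1, the first T lineage factor to act downstream of Notch. Its FPKM was 234, 101 and 298 in WT and 558, 429 and 491 in KO. The groups did not overlap, but WT spread over a wide range, 211 ± 101 against 493 ± 64.5 in KO (SD, n = 3 each). The log2 fold change of 1.35 (SE 0.50) missed the threshold (limma, adjusted p = 0.0962). Without WT 2 it was smaller, at 0.89, and passed (limma, adjusted p = 0.0113). It also passed after quantile normalization (2.22) and with array weights (0.99).

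The 5′ end of Tcf7, on chr11:52252371-52283014 (minus strand), is overlapped by the antisense gene A630014C17Rik. The strand setting of the counting is not given in the sources used here, so reads of the pair in shared sequence cannot be told apart. A630014C17Rik had 73, 45 and 103 reads in WT and 522, 421 and 286 in KO, against 9469, 3102 and 12131 and then 27294, 17735 and 20767 for Tcf7. It rose as well (log2 fold change 1.75, limma, adjusted p = 0.00542). Gm26551, a long noncoding RNA gene on the same strand, also overlaps Tcf7. It had 131, 10 and 207 reads in WT and 554, 475 and 266 in KO. Its log2 fold change of 1.71 did not pass (limma, adjusted p = 0.0875). How reads shared with Tcf7 were assigned is not given in the sources used here.

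Lef1 showed no such separation. The WT values were 8.12, 11.4 and 14.6 and the KO values 17.7, 13.1 and 13.9. WT 3 lay within the KO range. The log2 fold change was 0.38 (95% confidence interval -0.30 to 1.06, limma, adjusted p = 0.378), and 0.40 without WT 2 (limma, adjusted p = 0.243). The Tcf7 to Lef1 ratio was 28.8, 8.79 and 20.4 in WT and 31.5, 32.8 and 35.4 in KO. It was higher in every KO library, by 0.97 on the log2 scale (exact permutation, p = 0.1, adjusted p = 0.2), and by 0.49 without WT 2.

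TCF1 and LEF1 bind TLE corepressors and beta-catenin. Of 5 tested paralogs and cofactors 0 rose and 2 fell, both of them corepressor genes of the TLE family. Tle4 had an FPKM of 21.9, 9.20 and 21.0 in WT and 0.162, 0.233 and 0.281 in KO (log2 fold change -3.82, limma, adjusted p = 0.000914). Tle1 had 2.16, 1.34 and 2.21 in WT and 0.00616, 0 and 0.00713 in KO, where 2 reads were counted in all (limma, adjusted p = 0.00229). Neither gene's groups overlapped. Tle3, also of this family, had an FPKM of 24.9, 14.5 and 21.1 in WT and 16.7, 15.6 and 23.6 in KO. It did not pass (log2 fold change -0.097, limma, adjusted p = 0.844). The paralog genes Tcf7l1 and Tcf7l2 did not reach the filter. Without WT 2, 1 of the 5 rose and 3 fell (26.8% and 25.3% of all genes). The one that rose was Ctnnb1, the gene of beta-catenin, by 1.01 (limma, adjusted p = 0.00350). Its FPKM was 27.7, 3.18 and 24.7 in WT and 52.1, 62.1 and 47.5 in KO, without overlap. With all libraries its log2 fold change was 1.91 (limma, adjusted p = 0.111).

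**Figure D2:**
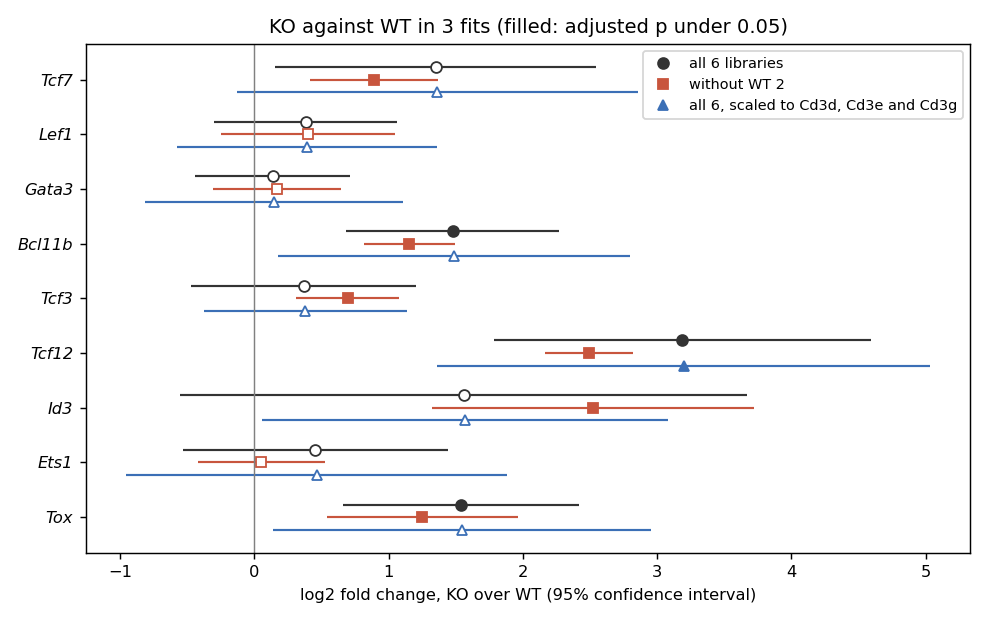
Log2 fold change of each of the 9 genes, KO over WT, with 95% confidence intervals from limma, in all 6 libraries (circles), without WT 2 (squares) and in all 6 libraries scaled to Cd3d, Cd3e and Cd3g (triangles). Filled markers have an adjusted p under 0.05: Tcf12 is filled in all 3 fits, Bcl11b and Tox in 2, and Lef1, Gata3 and Ets1 in none.

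Bcl11b, the factor of T lineage commitment, rose. It had an FPKM of 15.4, 7.89 and 17.4 in WT and 41.6, 34.4 and 37.4 in KO. The KO libraries were about alike and all above WT. The means were 13.6 ± 5.02 in WT and 37.8 ± 3.61 in KO (SD, n = 3 each), and the log2 fold change was 1.48 (SE 0.33, limma, adjusted p = 0.0191). Without WT 2 it was 1.15 (limma, adjusted p = 0.00143). The call was lost when any KO library was left out, with log2 fold changes of 1.41 (KO 1 left out), 1.54 (KO 2) and 1.48 (KO 3) (limma, adjusted p = 0.0821, 0.0698 and 0.0779). No other annotated gene overlaps Bcl11b, on chr12:107910403-108003602 (minus strand).

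Gata3 did not move with it. GATA3 is a zinc finger factor of T cell specification and of the CD4 lineage. Its FPKM was 8.26, 10.2 and 10.9 in WT and 12.9, 9.21 and 10.6 in KO. The ranges overlapped, with WT 2 and WT 3 within the KO range and KO 2 and KO 3 within the WT range, and the log2 fold change of 0.14 had a 95% confidence interval from -0.44 to 0.72 (limma, adjusted p = 0.721). The ratio of Bcl11b to Gata3 was 1.87, 0.775 and 1.60 in WT and 3.23, 3.73 and 3.55 in KO, a log2 difference of 1.34 without overlap (exact permutation, p = 0.1, adjusted p = 0.2), and of 0.99 without WT 2. Neither of the 2 tested GATA paralogs and cofactors, Gata1 and Zfpm1, passed the threshold. Without WT 2, 1 of them rose.

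Tox rose from a low level. TOX is a nuclear HMG-box protein of thymocyte selection. The FPKM was 1.39, 0.380 and 1.63 in WT and 5.72, 3.13 and 6.64 in KO. The lowest KO library, KO 2, was above the highest WT library. The log2 fold change was 1.54 (SE 0.37, limma, adjusted p = 0.0238), and 1.25 without WT 2 (limma, adjusted p = 0.0139). It no longer passed with no filter on low values (limma, adjusted p = 0.0575), nor without WT 1 (1.65), without KO 1 (1.45) and without KO 3 (1.36) (limma, adjusted p = 0.0535, 0.0919 and 0.0921). The ratio of Tox to Tcf7 was 0.00594, 0.00378 and 0.00546 in WT and 0.0103, 0.00729 and 0.0135 in KO, which do not overlap, with a log2 difference of these FPKM ratios of 1.01 (exact permutation, p = 0.1), and 0.82 without WT 2. With 1 added to each FPKM the ratio overlapped (log2 difference 0.19, exact permutation, p = 0.6), and the difference was 0.36 without WT 2. Of its paralogs, only Tox4 was tested, and it did not pass. Tox2 did not reach the filter, but its FPKM was 0.0381, 0.0750 and 0.247 in WT and 1.75, 0.635 and 10.9 in KO, without overlap.

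Ets1 was second in abundance in the means of both groups. It had an FPKM of 91.4, 36.7 and 80.4 in WT and 111, 79.2 and 80.0 in KO. WT 2 was the one low value. The log2 fold change was 0.45 (limma, adjusted p = 0.470) with all libraries, 0.053 without WT 2 (95% confidence interval -0.42 to 0.52, limma, adjusted p = 0.830), and -0.052 with array weights. The sign for Ets1 thus turned in 1 alternative, and the cause was not tested. That fit weighted WT 1, WT 2 and WT 3 at 4.88, 0.0509 and 0.74. WT there was mainly WT 1, the highest WT value of Ets1. Fli1, a related ETS gene of stem cells and megakaryocytes, had 28.0, 25.4 and 28.0 in WT and 18.3, 15.6 and 14.01 in KO. The ratio of Ets1 to Fli1 was 3.27, 1.45 and 2.87 in WT and 6.07, 5.09 and 5.71 in KO, without overlap (log2 difference 1.19, exact permutation, p = 0.1, adjusted p = 0.2, and 0.83 without WT 2). Of 13 other ETS genes, 0 rose and 2 fell: Spi1, the myeloid factor PU.1, with a log2 fold change of -5.30, and Erg, a stem cell factor, with -1.72 (limma, adjusted p = 0.00511 and 0.0175). Without WT 2, 2 rose and 4 fell (26.8% and 25.3% of all genes), and without any 1 KO library 1 fell (7.44% to 8.08%). With all libraries 13.3% of all genes fell.

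**Figure D3:**
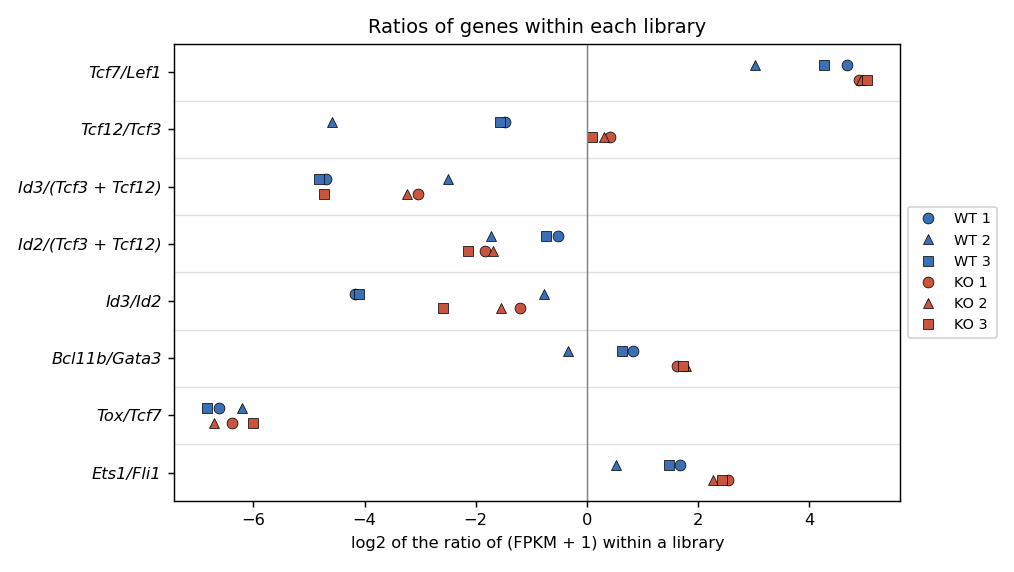
Log2 ratio of (FPKM + 1) between 2 genes, or a gene and a sum of 2 genes, within each library, for 8 ratios, with WT in blue and KO in red. On this scale the groups do not overlap for Tcf7/Lef1, Tcf12/Tcf3, Bcl11b/Gata3 and Ets1/Fli1, and Tcf12/Tcf3 crosses 0 between the groups.

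The order of the mean levels in WT was Tcf7, Ets1, Tcf3, Bcl11b, Lef1, Gata3, Tcf12, Id3 and Tox. In this order only the steps from Tcf7 to Ets1 and from Tcf3 to Bcl11b had no overlap between libraries. In KO the order was Tcf7, Ets1, Tcf12, Tcf3, Bcl11b, Lef1, Gata3, Id3 and Tox. Here each neighbour was separated from the next down to Gata3, whereas Gata3, Id3 and Tox overlapped. Tcf12 was at rank 3 in KO and rank 7 in WT, and the other 8 genes kept their order.

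Of the other genes, Lef1 lies on chr3:131110471-131224356 and Ets1 on chr9:32636221-32757820 (plus strand), Gata3 on chr2:9857078-9890034 and Tox on chr4:6686353-6991557 (minus strand), and each overlaps 1 to 3 annotated genes with fewer reads. Tcf3, on chr10:80409514-80433647 (minus strand), and Id3, on chr4:136143497-136145755 (plus strand), overlap none.

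To put the promoters beside these values, the windows of 250 bases before to 50 bases after a RefSeq transcription start (GRCm38.p6) were searched on both strands for CAGCTG and CAGGTG (E boxes bound by E proteins), CTTTGA and CTTTGT (bound by TCF and LEF factors) and AGGAAG (bound by ETS factors). Of the 9 genes 7 had a window, all but Ets1 and Tox. Those of the 2 genes that rose and had a window are shown in the direction of the gene, with matches in capitals. Tcf12 is chr9:72111770-72112069 and Bcl11b is chr12:108003365-108003664, both on the minus strand.
Tcf12: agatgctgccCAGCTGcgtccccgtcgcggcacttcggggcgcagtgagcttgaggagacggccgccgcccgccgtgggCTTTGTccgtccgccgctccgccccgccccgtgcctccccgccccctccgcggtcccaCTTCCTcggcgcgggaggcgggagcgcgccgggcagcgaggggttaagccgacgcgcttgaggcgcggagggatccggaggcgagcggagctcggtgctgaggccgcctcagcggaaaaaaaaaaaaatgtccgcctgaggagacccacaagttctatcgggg
Bcl11b: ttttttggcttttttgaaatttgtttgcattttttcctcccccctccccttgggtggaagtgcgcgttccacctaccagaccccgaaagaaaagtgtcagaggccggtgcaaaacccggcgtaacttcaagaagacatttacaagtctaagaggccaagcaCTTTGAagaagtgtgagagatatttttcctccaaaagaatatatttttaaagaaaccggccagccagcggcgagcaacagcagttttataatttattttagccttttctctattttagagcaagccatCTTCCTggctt

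The Tcf12 window held an E box 240 bases before the start, and also matched a TCF and LEF motif and, on the opposite strand, the ETS motif. The Bcl11b window held a TCF and LEF motif 89 bases before the start, and the ETS motif on the opposite strand. No motif overlapped another in these windows. CAGCTG was found for 3 of the 7 genes, Tcf7, Gata3 and Tcf12, of which only Tcf12 passed the threshold with all libraries. Over the promoters of 27025 genes, 16.1% held CAGCTG and 20.0% the other E box, which was found for 1 of the 7. The TCF and LEF motifs were in 16.2% (CTTTGA) and 18.7% (CTTTGT) of promoters, and in 1 and 2 of the 7. The ETS motif was in 35.1% of promoters and in 4 of the 7. These matches describe letters in a window and not binding.

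The partner regulators of T lineage entry comprised 14 genes, all tested. Of these 6 rose and 0 fell, with a median log2 fold change of 1.01. Notch1, the receptor that starts the T program, had an FPKM of 18.9, 1.26 and 16.9 in WT and 211, 140 and 170 in KO, and it rose (log2 fold change 4.21, limma, adjusted p = 0.0126). Hes1, a repressor switched on by Notch, rose most of the 14. Its FPKM was 0.954, 6.10 and 0.792 in WT and 152, 88.4 and 79.3 in KO (log2 fold change 5.14, limma, adjusted p = 0.00170).

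The other genes of this group that rose were Sox4, Sox13, Myb and Gfi1. Sox13 is an HMG-box factor of gamma-delta T cells, and its log2 fold change was 3.35 (limma, adjusted p = 0.00203). Sox4, an HMG-box factor of lymphoid progenitors, rose by 4.29 (limma, adjusted p = 0.00228). Myb, needed for progenitor growth and T cell development, rose by 3.22, and Gfi1, a zinc finger repressor, by 2.43 (limma, adjusted p = 0.00423 and 0.00425). Notch1, Myb and Gfi1 were named after their values were seen. The 6 genes were separated between the groups. Runx3, a factor of CD8 and NK cells, had 47.5, 13.7 and 46.3 in WT and 14.1, 9.65 and 11.3 in KO, which overlap through WT 2, and it was also named after its values were seen. Without WT 2, 8 of the 14 rose and 1 fell, and without KO 1 or KO 3 5 rose.

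Genes known to stand under these factors in thymocytes showed both directions. Of 16 tested, 6 rose and 1 fell, with a median of 0.20. Ptcra, which encodes the pre-T-cell receptor alpha chain and is a classical E protein target, had no reads in the 3 WT libraries and an FPKM of 161, 166 and 137 in KO. Il2ra (CD25) had 0.544, 2.16 and 1.19 in WT and 220, 245 and 224 in KO (log2 fold change 6.71, limma, adjusted p = 0.000233). Rag1, the recombinase gene, had 0.0686, 1.71 and 0 in WT and 392, 457 and 338 in KO (log2 fold change 8.11, limma, adjusted p = 0.000244). Rag2, Dntt and Cd4 were the others that rose. Cd5, a surface protein that increases with T cell receptor signalling, fell from 26.4, 32.8 and 32.4 to 15.3, 4.91 and 7.36 (log2 fold change -1.76, limma, adjusted p = 0.0200). Without WT 2, 8 of the 16 rose and 4 fell (26.8% and 25.3% of all genes). Cd5 did not pass without WT 3, without KO 2 or without KO 3.

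The genes listed as regulators of NK and innate lymphoid cells fell together, and a part of Bcl11b in this was not tested. All 6 that could be tested fell, with a median of -4.72, and 5 fell without KO 1 or without KO 3. Klrd1, an NK receptor gene, had an FPKM of 152, 106 and 204 in WT and 1.63, 0.496 and 1.12 in KO (log2 fold change -6.21, limma, adjusted p = 0.000259). Eomes and Tbx21, the T-box factors of NK and effector T cells, also fell (log2 fold change -4.47, adjusted p = 0.000613, and -3.97, adjusted p = 0.000553, limma). Of 3 tested stem and progenitor regulators 0 rose and 2 fell, Hhex (log2 fold change -2.98) and Nfe2 (-3.76). Without KO 1 or without KO 2, 1 of the 3 fell (8.08% and 7.44% of all genes). The third, Kit, went the other way without passing. Its FPKM was 3.07, 0.725 and 0.572 in WT and 5.17, 3.15 and 8.34 in KO, without overlap (log2 fold change 1.48, limma, adjusted p = 0.0645).

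**Figure D4:**
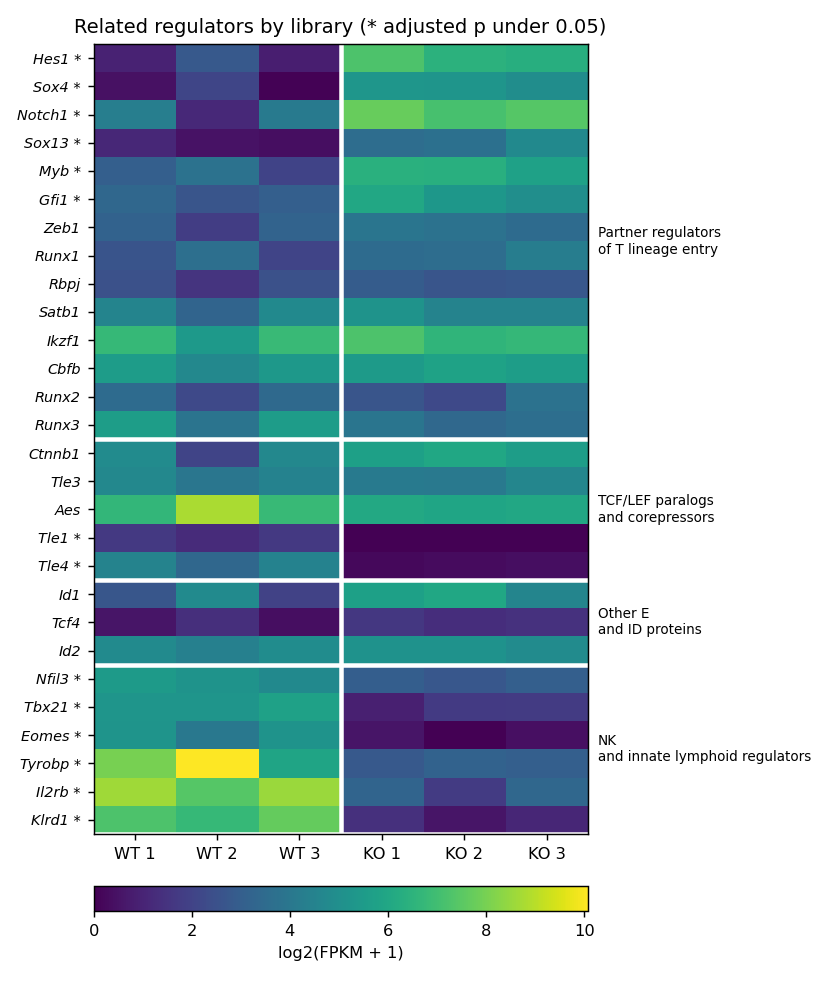
Log2(FPKM + 1) of the tested genes of 4 related groups (rows) in each library (columns), ordered within a group by log2 fold change, with an asterisk for an adjusted p under 0.05. Hes1, Sox4, Notch1, Sox13, Myb and Gfi1 are brighter in the KO columns, and Tle1, Tle4 and the 6 NK and innate lymphoid regulators are darker.

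The libraries also differed in RNA of whole cell types, which stands beside each value above. The T cell list (11 genes) summed to an FPKM of 1526, 3935 and 1742 in WT and 1719, 1499 and 1287 in KO, so WT 1 and WT 3 were near the KO level. Of its genes 0 rose and 4 fell, Cd5, Cd6, Trac and Trbc1, and without WT 2, 3 rose and 6 fell. Immature thymocyte markers (8 genes) summed to 199, 142 and 221 in WT and 1316, 1351 and 1087 in KO, and 7 rose and 0 fell, with and without WT 2. Their median log2 fold change was 4.64, also with Ptcra set to the bound that 3 reads per library allow. Mature effector T cell markers (12 genes) summed to 2490, 6780 and 3280 in WT and 718, 656 and 779 in KO, and 10 fell and 1, Gzma, rose. Without WT 2 these counts were also 10 and 1.

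Markers of other blood cells were higher in WT. Neutrophil markers (10 genes, all of which fell) summed to an FPKM of 33634, 95339 and 6820 in WT and 93.5 to 289 in KO. Monocyte and macrophage markers summed to 2003, 4993 and 591 in WT and 16.0 to 29.3 in KO, and 4 of 6 tested fell. NK cell markers summed to 390, 212 and 441 in WT and 4.45 to 6.06 in KO, and 7 of 7 tested fell. The counts of the neutrophil, monocyte and NK lists were equal without WT 2. Of 5 tested B cell markers 1 fell, and without WT 2, 4 fell and 1 rose. Erythroid markers summed to 137, 68045 and 525 in WT and to 126, 69.1 and 16.9 in KO, and 0 of 7 passed (limma). Without WT 2, 1 of them rose and 2 fell. The 2 tested megakaryocyte and platelet markers did not pass either, with sums over the whole list of 5.73, 59.7 and 4.96 in WT and 0.264 to 0.321 in KO, and both fell without WT 2. What these cell types contributed to the values of the 9 transcription factor genes was not tested.

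**Figure D5:**
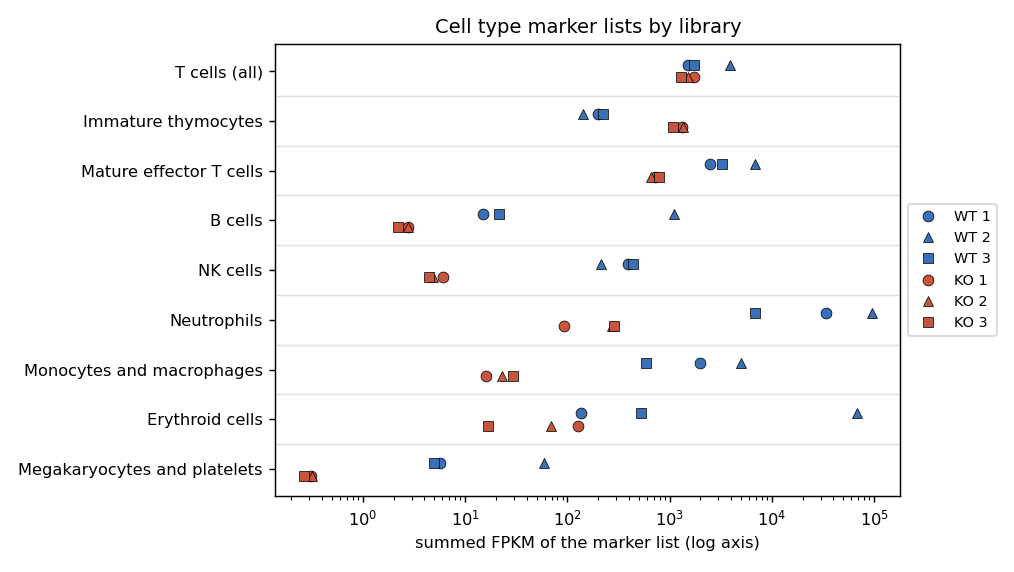
Summed FPKM (log axis) of 9 fixed marker lists in each library, with WT in blue and KO in red. The T cell list is at 1287 to 1742 in all libraries but WT 2, immature thymocyte markers are higher in KO, and markers of effector T cells, NK cells, neutrophils and monocytes are higher in WT.

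Each library was also scaled to the mean log2(FPKM + 1) of the CD3 genes Cd3d, Cd3e and Cd3g. This mean was 5.80, 7.00 and 6.14 in WT and 6.49, 6.21 and 6.21 in KO. The 3 genes disagreed in WT 2, where Cd3d and Cd3g were at their highest (FPKM 561 and 158) and Cd3e at its lowest (22.6). Whether their mean held T cell RNA level was not tested. The log2 fold changes were nearly the same as before because the group means of this reference were close, but the reference carried the spread of WT 2. Of the 9 genes 1 then rose, Tcf12, by 3.20 (limma, adjusted p = 0.0345), and 4.74% of all tested genes rose. Bcl11b was at 1.49 and Tox at 1.55 (limma, adjusted p = 0.136 and 0.147).

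Finally, genes with the most similar profile over the 6 libraries were looked up by Pearson r of log2(FPKM + 1), as a description that rests on the same WT and KO split and on the position of WT 2. The 2 protein-coding genes nearest to Tcf12 were Ncbp3 and Poldip3 (r = 0.999 for both), and those nearest to Bcl11b were Prmt6 and Asic3 (r = 0.999 for both). For Tcf7 they were Ddx19b and Xrcc3 (r = 0.998 for both), and for Tox Zdhhc8 (r = 0.997) and Sf3a1 (r = 0.995). For Ets1 they were Arnt and Prdm10 (r = 0.995 for both), and for Tcf3 R3hcc1 and Tap2 (r = 0.994 for both). The nearest genes had lower r for Id3 (Ppt2, 0.993, and Emc7, 0.982), Lef1 (Erlec1, 0.989, and Agap3, 0.983) and Gata3 (Foxo4, 0.963, and Slc25a51, 0.962).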

How the data were processed

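The deposited table holds FPKM values of 54532 genes in 6 BM libraries, with gene lengths and coordinates. According to the submitters' processing notes, reads were mapped with HISAT2 (2.0.5) to GRCm38 (mm10) and counted with featureCounts (1.5.0-p3), and the authors then computed FPKM per gene. The strand setting was not given in the sources used here. Multiplying the deposited FPKM by gene length gave whole multiples of a smallest step for 100% of values in each library (tolerance 0.001 reads), which gave the reads quoted. These steps also showed that the authors had scaled WT 2 to 0.645 of its total and the other libraries to between 1.01 and 1.21 of theirs.

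KO was compared with WT (n = 3 each) on log2(FPKM + 1) with limma (3.58.1; eBayes with trend) in R (4.3.3), over the 13393 genes that reached an FPKM of 1 in 3 or more libraries. P-values were adjusted by the Benjamini-Hochberg method over these genes, at a threshold of 0.05. Fold changes on this scale understate the change of low genes. Ratios within libraries were compared by 2-sided exact permutation tests, whose smallest p is 0.1. In data simulated for KO against WT over 13393 genes, 48% of genes changed by 2 and 80% of genes changed by 4 on the log2 scale were recovered. The alternatives covered pseudocounts, filters, scalings, voom on the recovered reads, library weights, a replicate block and leaving out each library.

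The 9 genes and the lists were chosen with earlier results of these data known. Named were the 9 genes, up to 3 genes with the smallest p past the threshold from each related list, genes used in ratios, the 2 most similar genes of each of the 9, genes overlapping them, and Phf6. Other names were chosen after their values were seen, among them every marker gene and every further gene named as rising, falling or tested in a list. Sequences are from RefSeq (GRCm38.p6).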

Additional observations from a re-analysis of the deposited data

How the results depend on the processing

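The direction in KO was kept by 8 of the 9 genes in all alternatives. Ets1 reversed with array weights (-0.052), and the within-library ratio Id3/(Tcf3 + Tcf12), a log2 difference of 0.33 with all libraries, reversed without WT 1 (-0.00823) and without WT 3 (-0.0784), and was 1.09 without WT 2. With no pseudocount, an alternative chosen after seeing the data, it was 1.06 with all libraries, 0.46 without WT 1 and 0.50 without WT 3, so the reversal arose with 1 added to each FPKM. Of the 9 genes, 3 rose with all libraries, 5 after quantile normalization (15.8% of all genes rose) and 5 after rescaling to TPM (17%). With array weights, which rested mainly on WT 1 among the WT libraries, 7 rose (32.8%). After scaling to the CD3 genes 1 rose (4.74%). That scaling was chosen after seeing the data, together with removal of the length trend (3 rose, 13%) and division by total reads (3 rose, 17.6%). Leaving out each library gave 1 to 6 rising, with 7% to 26.8% of all genes rising. The 0 that fell stayed 0 in each fit. Of all genes, 3539 passed with all libraries, 1837 at a mean FPKM of at least 5, 8461 with array weights, 1760 after scaling to the CD3 genes, and 1934 to 6967 without a library.

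Rescaling to TPM moved the median of all log2 fold changes from 0.086 to 0.86, and division by total reads to 0.40. With TPM 8.07% of all genes fell.

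Numbers did not pair the libraries: deviations of WT and KO libraries of the same number correlated at 0.095, 0.105 and -0.153 across genes. With the replicate block 2676 genes passed in either direction and 9.01% of all genes rose, and 3 of the 9 genes rose. Depth limits Id3 in WT 1 and WT 3, with 16 and 21 reads.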
